A study of Mus musculus with 3 samples.

Results

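Transcripts of 6 genes of cell-cell junctions were followed in sorted cells of the embryonic mouse kidney: the claudins Cldn7, Cldn3 and Cldn4, the adhesion receptor F11r (also called JAM-A), the tight junction scaffold Tjp1 (also called ZO1) and the desmosomal plakophilin Pkp3. They were chosen by name, with their ratios in these data known, and each was represented by 1 probe whose platform gene symbol matched. The array carried 15096 genes with a single symbol, of which 3915 had a value on all 3 arrays. Of the 6 genes, 5 had a value on every array, and Cldn4 was blank on array 1. Kidneys came from HoxB7-GFP transgenic embryos at 15.5 days post coitum (dpc), normal and pooled over both sexes, and GFP+ and GFP- cells were separated by fluorescence-activated sorting. Both fractions carried the transgene, in which the Hoxb7 promoter drives green fluorescent protein in the ureteric tree, so the GFP- fraction pooled all other kidney cells. Amplified RNA of the 2 fractions was hybridised together on each of 3 arrays, with no common reference. No dye swap is described, but without the dyes it is unknown whether they were swapped between arrays. Values are log2 ratios of GFP+ over GFP-, where 1 is a 2-fold difference. That direction is likely rather than settled, because it rests on the titles and the channel order and the dyes are unstated.

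Tight junctions seal the space between neighbouring epithelial cells near their apical border. Claudins span the membrane and polymerise into strands that set which ions can pass between cells, F11r is an immunoglobulin-like adhesion protein in the same belt, and Tjp1 binds the claudins' tails and ties them to actin. Desmosomes are a separate junction that anchors keratin filaments, and Pkp3 is one of their armadillo-repeat plaque proteins. The ureteric tree, which branches to form the collecting ducts, is a claudin-rich epithelium, and in the mature collecting duct Cldn4 and Cldn7 are known for their part in paracellular chloride handling. F11r and Tjp1 are broader: F11r is also found on endothelium, leukocytes and platelets, and Tjp1 also in endothelium and podocytes.

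Cldn3 and Cldn4 are neighbours on mouse chromosome 5, with no protein-coding gene between them in RefSeq's GRCm38.p6 gene table, and start on opposite strands pointing away from each other. Their promoters are shown because the genes lie side by side and differed on array 2, and that of Cldn7, from chromosome 11, because it had the highest ratio of the 6. Each is the 250 bases before the annotated start, from RefSeq on GRCm38.p6: chr5:134985964-134986213 on the + strand for Cldn3, chr5:134946935-134947184 on the - strand for Cldn4 and chr11:69964529-69964778 on the + strand for the first of 2 starts of Cldn7. Capitals mark matches, on either strand, to GGGCGG (the GC box) or CACCTG (an E-box that Snail and Zeb repressors can bind).
Cldn3: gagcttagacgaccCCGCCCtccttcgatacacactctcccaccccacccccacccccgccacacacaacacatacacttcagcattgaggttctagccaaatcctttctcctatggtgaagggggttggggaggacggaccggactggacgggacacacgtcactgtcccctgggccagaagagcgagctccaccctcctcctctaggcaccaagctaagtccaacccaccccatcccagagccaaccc
Cldn4: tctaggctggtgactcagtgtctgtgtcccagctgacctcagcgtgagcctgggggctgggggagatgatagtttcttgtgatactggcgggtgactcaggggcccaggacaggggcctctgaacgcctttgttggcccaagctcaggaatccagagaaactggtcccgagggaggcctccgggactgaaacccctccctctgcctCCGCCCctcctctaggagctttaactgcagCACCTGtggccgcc
Cldn7: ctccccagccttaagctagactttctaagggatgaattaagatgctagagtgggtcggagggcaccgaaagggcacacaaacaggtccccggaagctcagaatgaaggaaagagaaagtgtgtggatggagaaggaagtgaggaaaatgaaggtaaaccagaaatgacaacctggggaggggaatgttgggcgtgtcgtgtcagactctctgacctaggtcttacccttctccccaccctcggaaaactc
Promoters were found for 5 of the 6 genes, Pkp3 being the exception. GGGCGG matched before the starts of Cldn3, Cldn4, F11r and Tjp1 and the second start of Cldn7, and in 32.7% of all 32851 promoters of that length. CACCTG matched before the starts of Cldn4 and F11r and the second start of Cldn7, against 17.2% of all. No match overlapped another. The Grainyhead-like motif AACCNGTT (1.79% of all) and TATAAA (12.4%) matched none of the 6 windows, and the first start of Cldn7 held none of the 4 motifs. The window of that start held 51.2% G and C, near the median of 52.4% over all promoters, and the other 5 held 60.0% to 63.2%.

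The arrays did not weigh equally on every result. Arrays 2 and 3 correlated across the 3915 genes (Pearson's r = 0.883), while array 1 stood apart (r = 0.080 with array 2 and 0.277 with array 3). Genes are not independent replicates, so these are descriptions. Nothing in the labels ties the arrays to separate litters or pools, so SDs and p-values measure the spread between these arrays only, which may be technical. The sign on array 1 opposed that on both other arrays for 1958 of the 3915 genes. Values with and without array 1 are therefore given beside each other. The filtered table left 9449 of the 15096 genes blank on every array. Because whole cell fractions were compared, fewer cells of a type and less RNA per cell cannot be told apart.

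Cldn7 had the highest ratio of the 6 genes. Its log2 ratio was 2.09 on array 1, 2.62 on array 2 and 2.39 on array 3, or 4.24-fold, 6.13-fold and 5.25-fold higher in GFP+ cells. All 3 arrays were high, and the mean was 2.36 ± 0.27 (SD, n = 3). In the likely direction this placed Cldn7 at rank 5 of 3915, with 3910 genes below it (all ranks run the other way if the direction is turned), and at ranks 6, 4 and 6 on the single arrays. Cldn3 followed with 1.60, 2.28 and 2.21 on arrays 1, 2 and 3, or 3.02-fold, 4.85-fold and 4.64-fold. Array 1 was the lowest of the 3 but still far above 0, and the mean was 2.03 ± 0.38 (SD, n = 3), at rank 10. Cldn3 stood at rank 26 on array 1, 7 on array 2 and 10 on array 3. On every array, 13 of the 3915 genes were at least 3-fold higher, these 2 claudins among them, and 15 were at least 3-fold lower. These values chose the genes and are given without a test.

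**Figure D1:**
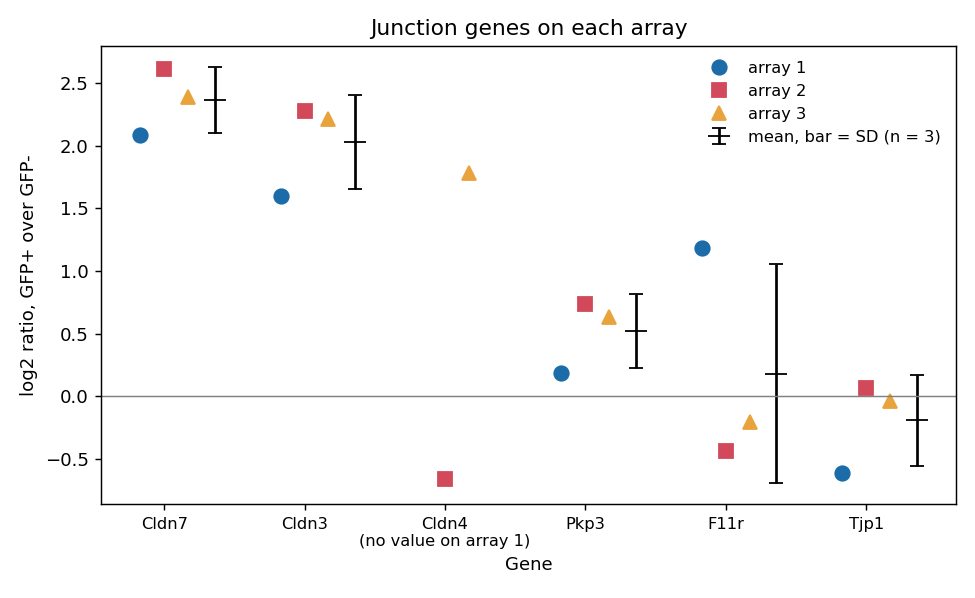
Log2 ratio (GFP+ over GFP-, vertical axis) of each gene on arrays 1, 2 and 3, with the mean and SD over 3 arrays beside the points where all arrays had a value. Cldn7 and Cldn3 lie between 1.60 and 2.62 on every array, Cldn4 is split between -0.66 and 1.78, and F11r is above 0 on array 1 alone.

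Cldn4, the neighbour of Cldn3, did not follow it on both arrays that measured it. Cldn4 had -0.66 on array 2, or 1.58-fold lower in GFP+ cells, and 1.78 on array 3, or 3.44-fold higher. On array 2 it lay below 87.7% of the 4419 genes with a value there, and on array 3 it ranked 26 of 5391. The 2 arrays that otherwise tracked each other thus gave opposite signs for this gene. Their gap of 2.44 compares with a median gap of 0.15 over 4257 genes with values on both arrays, and only 2 of those genes had a larger one. With 1 probe and 2 values that disagree, the data do not give Cldn4 a direction. Cldn3 had 2.28 and 2.21 on the same 2 arrays. The next protein-coding gene beyond Cldn3, Abhd11, which encodes a mitochondrial hydrolase, had 0.12, 0.09 and 0.37 on arrays 1, 2 and 3, far below Cldn3 on each. Cldn13 and Mettl27, on the Cldn4 side, were on the array but blank.

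Tjp1, the scaffold that claudins bind, had no such enrichment. Its log2 ratio was -0.61 on array 1, 0.06 on array 2 and -0.04 on array 3, a mean of -0.19 ± 0.36 (SD, n = 3) at rank 3053 of 3915. Array 1 was the lowest of the 3, and the others were close to equal signal in both fractions. Without array 1 the mean was 0.01, at rank 2258. F11r had 1.18 on array 1, or 2.27-fold higher, but -0.43 on array 2 and -0.21 on array 3. The arrays disagreed on the sign, and the mean of 0.18 was small beside the SD of 0.87 (n = 3). Its rank was 72 on array 1, 3224 on array 2 and 3010 on array 3. Without array 1 the mean of F11r was -0.32, against 0.49 without array 2 and 0.37 without array 3. A larger gap between array 1 and the mean of the other 2 was found for 4.11% of genes.

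Markers of nephron tubules were split. As for F11r, array 1 opposed the other 2 in Cdh6 and Hnf4a, and it also did so for 1958 of all 3915 genes. Cdh6, a cadherin of early proximal nephron epithelium, had 0.80, -0.57 and -0.30 on arrays 1, 2 and 3, and Hnf4a, a transcription factor of proximal tubule, had 0.89, -0.41 and -0.04. Fxyd2, a sodium-pump subunit of tubules, went the other way, with -0.34, 0.71 and 0.54. Lrp2 had -0.04 and 0.06 on arrays 2 and 3, and Pax8 0.40 on array 3 alone. Of the 10 tubule markers listed, 8 were on the array and these 3 had a value on every array, with none past the threshold (0 at an unadjusted p below 0.05 by limma). The part of tubule cells in the F11r values was not tested. Platelet markers could not be followed, since of 5 on the array only Itga2b had a value, 1.07 on array 3.

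**Figure D2:**
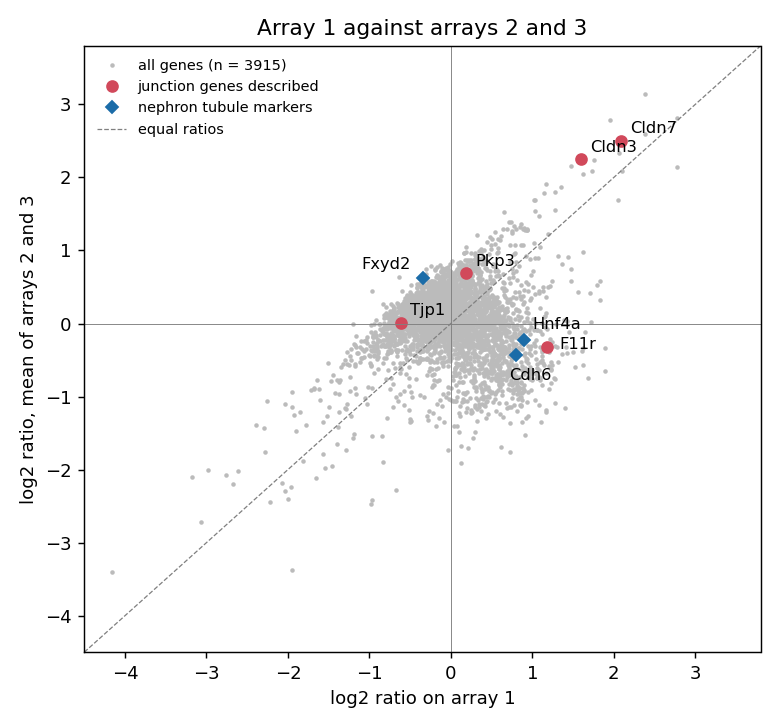
Log2 ratio on array 1 (horizontal axis) against the mean of arrays 2 and 3 (vertical axis) for 3915 genes, with the dashed line marking equal ratios. Cldn7 and Cldn3 lie in the upper right tail near the line, whereas F11r (1.18 and -0.32) sits off it below, as Cdh6 and Hnf4a do, and Fxyd2 (-0.34 and 0.63) lies off it above.

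Pkp3 was positive on every array at a lower level. Its log2 ratio was 0.19 on array 1, 0.74 on array 2 and 0.63 on array 3, a mean of 0.52 ± 0.29 (SD, n = 3), or 1.43-fold, at rank 224. Array 1 was again the lowest, at rank 1256 against 208 and 218 on arrays 2 and 3. A positive value on all 3 arrays was found for 20.7% of genes.

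By mean ratio the order was Cldn7, Cldn3, Pkp3, F11r and Tjp1. Cldn7 exceeded Cldn3 on every array, by 0.49, 0.34 and 0.18, so the mean gap of 0.34 ± 0.16 (SD, n = 3) was small but of one sign. Cldn3 exceeded Pkp3 by 1.41, 1.54 and 1.58, a gap of 1.51 ± 0.09. F11r had no stable place: it was above Pkp3 and Tjp1 on array 1 and below both on arrays 2 and 3, so neither neighbour differed from it beyond the spread. Differences between pairs of the other 4 genes had SDs of 0.02 to 0.16 over the arrays, against 1.13 to 1.25 for pairs with F11r. The gap between Cldn3 and Tjp1 was 2.21, 2.22 and 2.25, and that between Pkp3 and Tjp1 was 0.80, 0.68 and 0.67. Cldn7, Cldn3, Pkp3 and Tjp1 were each lower on array 1 than on the mean of arrays 2 and 3, by 0.42, 0.65, 0.50 and 0.62, where F11r was higher.

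**Figure D3:**
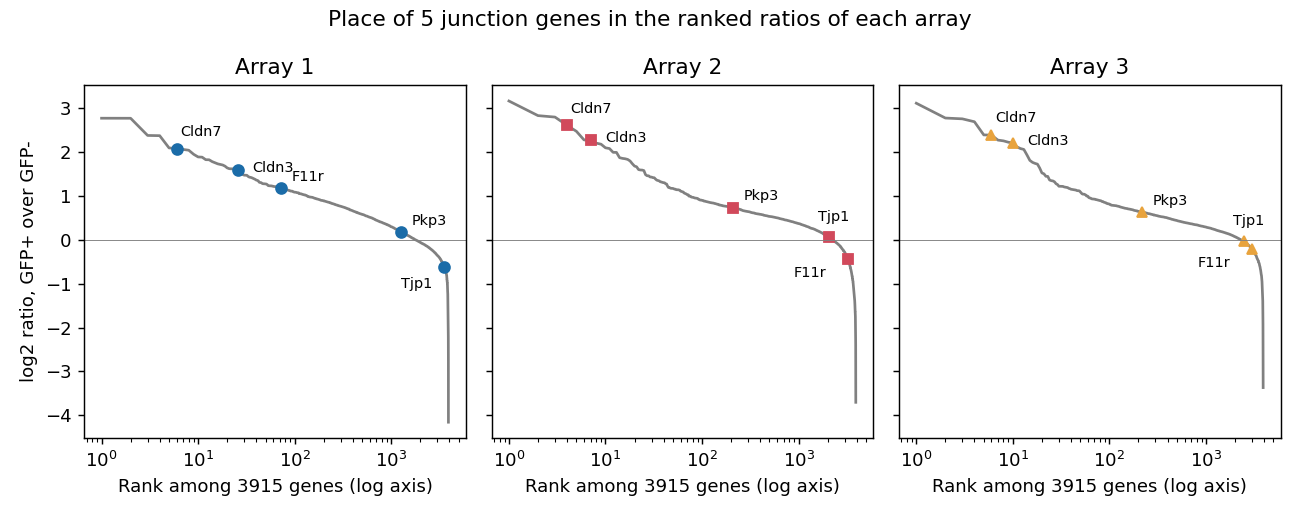
Log2 ratios of 3915 genes in descending order on each array (grey line, log-scaled rank axis), with Cldn7, Cldn3, Pkp3, F11r and Tjp1 marked. Both claudins stay within the first 26 genes on each array, and F11r moves from rank 72 on array 1 to 3224 and 3010 on arrays 2 and 3.

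The genes nearest to each member over the 3 log2 ratios, by Euclidean distance, are a description over 3 points. Cldn3 lay closest to Bex1 (distance 0.18), to Krt8, a keratin of simple epithelia (0.18), and to Spint2, an inhibitor of serine proteases (0.27). Krt8 and Spint2 were also its neighbours in rank, at 9 and 11. Cldn7 lay closest to ccdc198 (0.33), to Fxyd4, a sodium-pump regulator (0.44), and to Wfdc15b, a WAP-domain protein (0.45), with Fxyd4 and the transcription factor Gata3 next to it in rank at 4 and 6. Pkp3 lay closest to Prom2, a membrane protein of epithelial protrusions (0.05), Anp32a (0.06) and Baiap2l1, an adaptor between membrane and actin (0.06). Mrpl43 and Nr2c1 adjoined it in rank. F11r was nearest to genes of general cell function: Park7 (0.05), which guards against oxidative stress, the translation initiation factor Eif1ax (0.13) and the mitochondrial import chaperone Timm8b (0.13). Its neighbours in rank, Zfp740 and Ccng2, did not share its pattern, with -0.14 and -0.17 on array 1. Tjp1 was nearest to the nucleolar protein Nifk (0.03), Praf2 (0.04) and Prkar1a, a regulatory subunit of protein kinase A (0.05), with Ube2a and Praf2 beside it in rank.

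The rest of the junction was sparsely measured. Of 98 further genes of tight junctions, adherens junctions, desmosomes and gap junctions on the array, 20 (20.4%) had any value, against 37.4% of all genes, and 16 had one on every array. Cdh1 (E-cadherin), its partner Ctnnb1, occludin (Ocln), Epcam, desmoplakin (Dsp), plakoglobin (Jup), Cgn and Tjp3 were blank on all 3 arrays. A blank says nothing of the level, because the rule of the filter is unknown here. In the limma fit, 0 of the 16 passed the threshold of a Benjamini-Hochberg adjusted p below 0.05. Of all 3915 genes, 1.38% passed as higher and 1.40% as lower. At an unadjusted p below 0.05 by limma, 3 of the 16 were higher and 2 lower, beside 331 and 251 of all 3915 genes. The 16 had a median mean ratio of -0.02, beside 0.03 over all genes, and 7 were positive and 9 negative. Without array 1, 4 of the 16 passed as higher (Afdn, Ildr1, Nectin2 and Panx1) and 4 as lower (Cdh6, Cldn5, Gjc1 and Lima1), with limma adjusted p between 0.00185 and 0.0375, where 27.5% and 18.8% of all genes passed. Leaving out array 2 or array 3 again gave 0 of the 16. The lists were drawn up with earlier results of these data known.

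Among tight junction membrane proteins, the endothelial claudin Cldn5 was the 1 other claudin of 18 on the array with a value throughout. It had -0.30, -0.53 and -0.40, a mean of -0.41 ± 0.12 (SD, n = 3) that did not pass (limma adjusted p = 0.298). Cldn19 had -0.04 on array 1 alone. Ildr1, an angulin-family receptor of tricellular junctions, had 0.65, 0.48 and 0.63 (0.59 ± 0.09, limma adjusted p = 0.152), and did not pass. Esam, an endothelial adhesion molecule, had -0.21 ± 0.06.

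Of 4 scaffold and polarity genes measured throughout, 3 had a positive mean, where 54.9% of all genes did. The median of the 4 was 0.26, beside 0.03 over all genes. Afdn, the actin-binding afadin, had 0.24, 0.90 and 0.80 (0.65 ± 0.36, limma adjusted p = 0.203), above Pkp3 in rank at 137. Prkcz, an atypical protein kinase C of the apical polarity complex, had 0.35 ± 0.31, the small GTPase Cdc42 0.18 ± 0.38 and the angiomotin-like Amotl1 -0.02 ± 0.26. Cdc42 was positive on array 1 alone, with 0.62 there but -0.06 and -0.01 on arrays 2 and 3. None of these 4 passed with all 3 arrays. Mpdz and Rab13 had -0.31 and -0.40 on array 3 alone.

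Of 6 adherens junction genes, 5 had a negative mean, where 45.1% of all genes did, with a median of -0.23. One of the 5, Cdh6 (-0.02 ± 0.73), turned positive without array 2 or array 3. Another, the catenin gene Ctnna1 (-0.13 ± 0.36), was negative on array 1 alone, with -0.54 there but 0.13 and 0.03 on arrays 2 and 3. Lima1, an actin-bundling protein, had 0.45 on array 1 but -0.97 and -1.01 on arrays 2 and 3 (-0.51 ± 0.83), a split like that of F11r. Actn4, a crosslinker of actin, had -0.37 ± 0.22, the mesenchymal cadherin Cdh11 -0.33 ± 0.30 and Nectin2 0.20 ± 0.23. The kidney-specific cadherin Cdh16 had 2.55 and 3.19 on arrays 1 and 2 and was blank on array 3. Its 2 values exceeded those of Cldn7 on the same arrays.

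In the desmosome list only Perp, a membrane protein that desmosomes need in stratified epithelia, was measured throughout, with 0.28, 0.02 and 0.21 (0.17 ± 0.13). Of the gap junction genes, the connexin Gjc1 had -0.95, -0.27 and -0.44 (-0.55 ± 0.35, limma adjusted p = 0.266) and the pannexin Panx1 0.14, 0.64 and 0.63 (0.47 ± 0.29, 0.298). Neither passed with all 3 arrays.

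**Figure D4:**
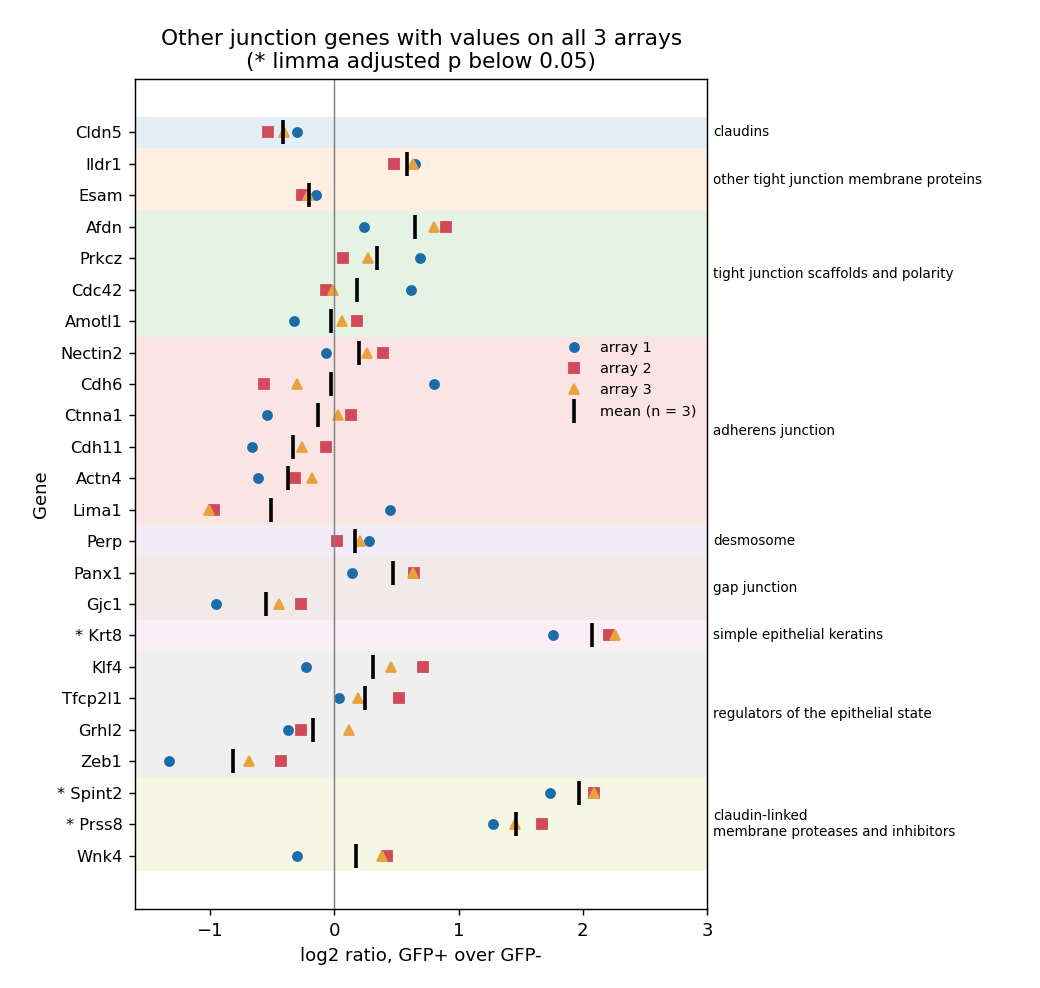
Log2 ratio (GFP+ over GFP-, horizontal axis) on arrays 1, 2 and 3 for the 24 other junction, keratin, regulator and protease genes with values throughout, grouped by list, with the mean as a vertical bar. Krt8, Spint2 and Prss8, marked by an asterisk, lie above 1.2 on every array, while the 16 junction proteins have means between -0.55 and 0.65.

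Genes tied to the epithelial state, rather than parts of junctions, included those that passed. In all, 3 of the 24 other genes measured throughout rose in GFP+ cells and 0 fell, against 1.38% and 1.40% of all genes. At an unadjusted p below 0.05 by limma, 6 of the 24 were higher and 3 lower, beside 331 and 251 of all 3915 genes. The keratin and protease lists that hold the 3 genes that rose were also drawn up with earlier results of these data known. Their count is therefore a description. Krt8 had 1.76, 2.21 and 2.26 (2.08 ± 0.28, limma adjusted p = 0.00494). Spint2 (1.97 ± 0.20, 0.00494) and the membrane-anchored serine protease Prss8 (1.47 ± 0.20, 0.0105) were the other two. All 3 were higher on 3 of 3 arrays, and all 3 passed under each of the alternatives. Leaving out array 1 gave 10 of the 24 as higher and 5 as lower, beside 27.5% and 18.8% of all genes. Leaving out array 2 gave 3 and 1, beside 1.25% and 1.79%, and leaving out array 3 gave 3 and 0, beside 0.587% and 1.30%. Wnk4, a kinase that regulates renal ion transport, had 0.17 ± 0.41. Krt7 had 2.64 on array 3 alone, and Krt18 and Krt19 were blank.

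None of the 4 regulators of epithelial genes measured throughout passed with all 3 arrays. At an unadjusted p below 0.05 by limma, 1 of them was lower, beside 251 of all 3915 genes. Grhl2, a Grainyhead-like factor known to drive claudin and cadherin genes in the nephric duct, had -0.37, -0.27 and 0.12 (-0.17 ± 0.26), and the related factor Tfcp2l1 0.25 ± 0.25. Zeb1, a repressor of epithelial genes, had -1.33, -0.43 and -0.69 (-0.82 ± 0.46, limma adjusted p = 0.159), negative on every array. By limma it passed as lower without array 1 (adjusted p = 0.0122), as 18.8% of all genes did. It also passed as lower without array 2 (limma adjusted p = 0.0365), as 1.79% did. Klf4 had 0.31 ± 0.49, and Klf4 and Tfcp2l1 passed as higher without array 1 (limma adjusted p = 0.0106 and 0.0482), as 27.5% of all genes did. Esrp1, a splicing regulator of epithelia, had the largest ratios of this group, 2.98 and 3.11 on arrays 2 and 3, and was blank on array 1. It passed as higher when genes with 2 values were admitted. The repressors Twist1 and Snai2 had -1.42 and -0.21 on array 3 alone.

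Markers of the sorted cells were read in the same direction, from lists chosen with earlier results of these data known. Of all 3915 genes, 1.38% passed as higher and 1.40% as lower. Gata3, a transcription factor of the ureteric duct (2.35 ± 0.39, limma adjusted p = 0.00494), and Krt8 were the 2 of 13 ureteric markers measured throughout, and both rose; Ret, Wnt11, Calb1, Hoxb7 and Aqp2 were among the 11 blank ones. Of other cell types, 5 of 6 measured macrophage and leukocyte markers fell, with a list median of -1.88, -1.93 and -1.95 on arrays 1, 2 and 3. Array 1 was the lowest of the 3 for Fcer1g (-2.98, -1.98 and -2.02) and the highest for Mrc1 (-1.65, -2.05 and -2.18). Cd52 had the lowest mean of these markers (-2.84 ± 0.28, limma adjusted p = 0.0032), and Fcer1g, Mrc1, Laptm5 and C1qa also fell, while Tyrobp (-1.28 ± 0.60) did not pass. Both measured markers fell in stroma (Mgp, -2.46 ± 0.62, and Dcn, -1.61 ± 0.26) and in the erythroid list (Hba-x, -2.22 ± 0.38, and Alas2, -2.15 ± 0.07). Of 3 measured genes on the podocyte list, Wt1 (-1.42 ± 0.37) and Tcf21 (-1.94 ± 0.35) fell and Podxl (0.02 ± 0.31) did not. Nphs1 and Synpo were blank, so the list gives podocytes no single direction. In cap mesenchyme, Crym (-1.72 ± 0.59) and Uncx (-1.20 ± 0.15) fell of 5 measured, and Cited1 (-1.18 ± 0.47), Meox1 (-0.98 ± 0.35) and Osr1 (0.17 ± 0.28) did not pass. All 7 measured endothelial markers had a negative mean, from -0.96 (Ramp2, ± 0.94) to -0.17 (Tek, ± 0.33). None passed the threshold by limma, and 3 were lower at an unadjusted p below 0.05, beside 251 of all 3915 genes. Emcn had -0.48 ± 0.37 and Kdr -0.42 ± 0.32. On part of the arrays, Cdh5 had -2.08 and -1.28 (arrays 2 and 3) and Pecam1 -1.46 (array 3). F11r and Tjp1 are also found in endothelium, and its part in their values was not tested.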

How the data were processed

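Each of 3 two-colour oligonucleotide arrays compared GFP+ with GFP- cells of 15.5 dpc kidneys. Per the labels, images were read with Imagene 5.5 and the authors fitted a Lowess curve with 20% of the data at each point, adjusted the control channel by it and raised control values below 10 to 10, so large ratios over a dim control may be understated. The deposited values are log2 ratios: 2 raised to the value was a whole number of thousandths, within 0.01, for 99.97% of values. The rule of the authors' filter, the dyes and any genome build for the probes are not stated in the sources at hand. The authors' normalization was kept.

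Of 17408 annotated probes, 17252 had 1 gene symbol, 156 had several and named no gene, and 16566 were updated through gene identifiers to RefSeq symbols (GRCm38.p6). Probes of a gene were averaged per array. Limma 3.58.1, run in R 4.3.3, tested each gene's mean against 0 (intercept only, two-sided, Benjamini-Hochberg over 3915 genes). The test was checked on simulated data with independent arrays of equal spread. That check does not cover arrays as unlike as array 1 and the other 2 were here. The 3 arrays are 1 group, and their number limits the precision. The 6 genes, the 9 junction lists and the 9 marker lists were chosen with earlier results of these data known, so the 6 genes were not tested. Named are the 6 genes, list members past the threshold, the 4 of largest mean per list (of partial values too in the junction lists), the 3 nearest genes and the neighbours in rank. Blank genes, Ctnna1 and the neighbours of Cldn3 on the chromosome were chosen after their values were seen. Alternatives left out arrays in turn, centred, scaled or quantile normalized them, weighted them (gene-by-gene method, since the REML fit did not converge), averaged arrays 2 and 3, admitted genes with 2 values, tested probes, or kept platform symbols. Protein sequences were not used here.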

Additional observations from a re-analysis of the deposited data

How the results depend on the processing

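For the 5 genes with a value on every array, all alternatives but array weights were run. Cldn7 (2.24 to 2.50, ranks 5 to 8), Cldn3 (1.91 to 2.25, ranks 7 to 15) and Pkp3 (0.41 to 0.69) kept their sign. F11r (-0.32 to 0.49, ranks 271 to 3157) and Tjp1 (-0.32 to 0.01) changed sign without array 1. All 5 means moved by less than 1 SD, but leaving out or averaging arrays cannot move a mean of 3 values by that much. Each gene had 1 probe with 3 values, so testing probes, keeping platform symbols or admitting genes with 2 values left its mean as it was. Leaving out 1 array at a time gave 23 (without array 3) to 1078 (without array 1) genes higher and 51 to 737 lower, where 54 and 55 passed with all arrays, and 3 to 10 of the other junction genes higher and 0 to 5 lower; without array 2, Zeb1 was the 1 lower. Array weights gave 1309 genes higher and 861 lower, with 11 and 6 of the junction genes. Averaging arrays 2 and 3 left 29 genes higher, and quantile normalization gave 84 lower. Genes with 2 values added Cdh16 and Esrp1, making 5 junction genes higher. Signs that reversed belonged to genes that did not pass with all arrays: leaving out arrays in turn gave Amotl1 -0.13 to 0.12, Cdc42 -0.038 to 0.30, Cdh6 -0.43 to 0.25, Hnf4a -0.22 to 0.43 and Podxl -0.12 to 0.19. Array weights gave Amotl1 0.084, Cdc42 -0.0097, Grhl2 0.0099 and Hnf4a -0.11; averaging arrays 2 and 3 gave Cdh6 0.18 and Podxl -0.068; centring and scaling gave Podxl -0.026 and -0.023. The causes were not tested. The fit is itself paired, since each ratio sets the 2 fractions of 1 array against each other. Signal over background could not be examined from ratios.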

Other observations

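Cldn4 was 1 of 3 genes with the largest gaps between arrays 2 and 3, and the others are named after their values were seen. Parp1, a DNA damage sensor, had -3.05 on array 2 and -0.48 on array 3, and the AP-1 factor Jund had -2.75 and -0.30. Both lay above 0 on array 1, at 0.73 and 0.91. In all 3 genes array 2 was the lower, and Cldn4 alone of them was positive on array 3.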
